A study of Homo sapiens with 10 samples.

Results

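The collagen chains were taken as every gene whose symbol is COL, a type number, A and a chain number. The rule found 44 genes among the 34567 in the table. They were split by the assembly that each chain forms into 11 fibrillar chains, 8 basement membrane chains and 25 others. RNA was sequenced from human glioma cell lines in which the homeobox transcription factor MEOX2 was lowered or raised. There were 10 libraries in all. SNB19 cells received Scramble siRNA (SNB19 NC, 3 libraries) or MEOX2 siRNA (SNB19 siMEOX2, 3 libraries). U87 cells received empty vector lentivirus (U87 EV, 2 libraries) or lentivirus for MEOX2 overexpression (U87 OE, 2 libraries). Both are established lines grown in serum, and the U87 cells were selected with puromycin as stable lines. Each perturbation was made in 1 line, and the SNB19 samples carry the name of a single siRNA, so an effect of that siRNA on other transcripts cannot be told apart from loss of MEOX2.

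Collagens are secreted proteins wound from 3 chains, and the chain type decides the structure they build. Fibrillar collagens such as types I and V form the banded fibrils of connective tissue. Type IV chains form the sheet under epithelia and around vessels, and the multiplexins COL15A1 and COL18A1 are anchored in or beside it. The remaining chains include type VI, which builds beaded microfilaments around cells, the FACIT chains that decorate fibrils, the transmembrane chains, the short-chain networks and the anchoring fibril chain COL7A1. Normal brain holds little fibrillar collagen outside its vessels and meninges, whereas gliomas and their cell lines can make several types. Some chains pair obligatorily, so that a type I heterotrimer needs both COL1A1 and COL1A2, and type VI needs COL6A1 and COL6A2 with a further chain.

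The libraries held 12533775 to 16560324 counts. MEOX2 was counted 249, 224 and 275 times in SNB19 NC and 54, 40 and 49 times in siMEOX2, a log2 fold change of -2.41 ± 0.14 (SE) with an adjusted p of 1.352e-11. It was at 0 in both U87 EV libraries and at 4999 and 5308 counts in U87 OE, at least 1910-fold higher when the EV libraries are set at a floor of 3 counts each. The U87 EV replicates differed far more than any other pair, with a chi-square per degree of freedom of 280 against 2.06 to 6.56 elsewhere, over genes with a mean of at least 10 counts per library. Among the markers of glioma cells VIM was abundant in every library, and GFAP did not exceed 0.397 FPKM in any. S100B stood at 0 in the 4 U87 libraries and at 1 to 5 counts in the SNB19 libraries. SOX2 was at 0 to 3 counts in U87 and at 187 to 528 in SNB19. The fibroblast and mural list of 6 genes summed to 35.97 to 36.76 FPKM in SNB19 NC, 21.81 to 24.51 in siMEOX2, 4.85 and 8.96 in U87 EV, and 2.93 and 3.27 in U87 OE. THY1 made up most of that sum in SNB19 NC, at 29.7 to 30.3 FPKM, and was at 0 in both EV libraries, while POSTN was at 0 in both groups. PDGFRB, FAP, DCN and LUM were above 0 in both EV libraries, with LUM at 2.18 and 2.48 FPKM and PDGFRB at 2.08 and 4.91. Each of the 3 genes of this list tested in knockdown was lower in siMEOX2. Over all genes tested in knockdown, 28.5% were lower and 27.4% higher. The endothelial list of 4 genes went from 5.43 to 6.08 FPKM in NC to 1.47 to 1.62 in siMEOX2, with 3 of 4 lower, and the glioma list of 6 from 184 to 187 FPKM to 93.6 to 99.8, with 4 of 5 tested genes lower and OLIG2 higher. The glioma sum was 692 and 245 FPKM in U87 EV and 124 and 125 in OE, mostly VIM. The part of these lists in the collagen results was not tested. The 2 immune markers summed to at most 0.99 FPKM, with PTPRC at 0 in both EV libraries and CD14 lower in siMEOX2 (-1.65). Of 3 epithelial markers, CDH1 was higher and KRT18 lower in siMEOX2.

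Libraries of 1 group that differ by gene length matter for collagens, because most chains have long transcripts. FPKM, the unit of level used here, divides each fragment count by the gene's exon length and the library's total count. In U87 EV replicate 1 the median log2 FPKM ratio to replicate 2 went from 0.88 for genes of up to 2000 bp to -1.35 for genes above 12000 bp. The same ratio between the OE replicates stayed between -0.11 and 0.13 over those bins. Taken as deposited, the FPKM of the 21 collagen chains with at least 50 counts over both EV libraries were compared. Only COL6A2 at 0.54 and COL9A2 at 0.23 were higher in replicate 1. These FPKM carry no TMM scaling, a correction for library composition. Its factors were 0.695 for EV replicate 1 and 0.952 for replicate 2, so scaling raises replicate 1 relative to replicate 2. The sign of ratios near 0, such as -0.049 for COL4A2, therefore depends on the scaling. COL6A3, at 19633 bp of exon, was 5.89-fold higher in replicate 2, COL12A1 4.68-fold and COL4A3 4.49-fold. COL4A2, at 19293 bp, differed by 1.03-fold and COL7A1, at 11071 bp, by 1.22-fold. The U87 values below are therefore given for both EV libraries, and the fold changes under overexpression also without replicate 1.

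In control cells the lines made different sets of collagens. The 44 chains together took 0.274% to 0.281% of counts in SNB19 NC, and 0.540% and 0.950% in the U87 EV libraries. At a group mean of 1 FPKM or more, 17 chains were detected in SNB19 NC and 14 in U87 EV. Type VI led in SNB19, where it held 63.4% to 63.9% of collagen counts and type I 1.55% to 1.89%. In U87 EV, type VI held 59.9% and 49.3% and type I 26.6% and 35.4%.

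The 8 chains of highest mean FPKM in SNB19 NC were COL6A1, COL6A2, COL5A1, COL4A2, COL6A3, COL27A1, COL4A5 and COL4A1, from 168 FPKM for COL6A1 down to 4.85 ± 0.28 (SD, n = 3) for COL4A1. In U87 EV the order was COL6A2, COL1A1, COL6A1, COL1A2, COL6A3, COL7A1, COL5A1 and COL16A1, but the EV libraries disagreed by more than most neighbouring steps. COL1A1, for example, was at 77.95 and 188 FPKM, a range that covers the values of COL6A1 (85.3 and 146). COL3A1, the type III chain that accompanies type I in most connective tissues, did not exceed 0.0443 FPKM in SNB19 NC and was at 0 and 0.0313 in U87 EV. A group of 13 chains was tested in no comparison, none of them above 9 counts in any library. They include COL2A1, COL3A1 and COL11A1 among the fibrillar chains.

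The comparison of SNB19 NC with U87 EV asks how the control cells of the lines differ. MEOX2 itself differed, at 249, 224 and 275 counts in SNB19 NC and 0 in both EV libraries. The level of MEOX2, siRNA transfection and lentiviral selection all differ with the line and cannot be told apart from it. Of 29 chains tested, 10 were higher in SNB19 NC and 12 lower. Over all genes 21.4% of those tested were higher and 20.0% lower. The fibrillar class leaned to U87, with 4 of 7 tested chains lower in SNB19 and COL11A2 the 1 higher, and a median log2 fold change of -4.74 against 0.02 for all genes. Of 8 basement membrane chains tested, 3 were higher in SNB19 NC and 2 lower, COL4A6 (-2.82 ± 0.43) and COL15A1 (-3.09 ± 0.36).

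The largest differences toward U87 were in fibrillar chains and the anchoring fibril chain COL7A1. COL1A2, the second chain of type I collagen, was at 0.0758, 0.0653 and 0.0982 FPKM in SNB19 NC and at 59.9 and 136 in U87 EV (log2 fold change -10.55 ± 0.40, adjusted p = 0.0003811). COL1A1 was at 4.23, 5.32 and 4.59 FPKM in SNB19 NC, below both EV libraries (-5.12 ± 0.33). The FPKM ratio of COL1A1 to COL1A2 was thus 61.3 ± 17.9 (SD, n = 3) in SNB19 NC, against 1.30 and 1.39 in U87 EV. SNB19 cells held RNA of the alpha 1 chain with very little of its partner's. COL5A2, a partner of COL5A1 in type V, was at 0.577 to 0.786 FPKM in SNB19 NC and at 6.34 and 23.2 in U87 EV (-4.74 ± 0.47). COL5A3, at most 0.0108 FPKM in SNB19 NC and 0.128 and 0.242 in EV, had a log2 fold change of -4.90 ± 0.67, and 4% of its exon bases are shared with another gene. COL7A1, the chain of anchoring fibrils, was at 3.29 to 3.97 FPKM against 30.6 and 37.2 (-3.59 ± 0.19).

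The largest differences toward SNB19 were in basement membrane chains, the FACIT chain COL9A3 and the fibrillar chain COL11A2. COL4A1 was at 4.56, 4.86 and 5.13 FPKM in SNB19 NC and at 0 counts in both EV libraries, which makes it at least 358-fold higher in SNB19. COL4A2, which joins it in the common type IV heterotrimer, was at 12.4, 13.1 and 13.3 FPKM against 0.225 and 0.232 (log2 fold change 5.43 ± 0.25, adjusted p = 0.0003811). COL18A1, the precursor of endostatin, was at 4.29, 4.54 and 4.13 FPKM against 0.0436 and 0.0417 (6.25 ± 0.27), with 16.4% of its exon bases shared with another gene. COL9A3, a type IX chain, was at 4.07 to 4.82 FPKM against 0.0511 and 0.176 (4.96 ± 0.40). COL11A2 was at 0.484 to 0.541 FPKM against 0.0184 and 0.0422 (3.70 ± 0.38). These 10 chains kept their direction and their call without either EV library. Among them COL5A2 was at -5.28 without EV replicate 1 and -3.82 without replicate 2, and COL9A3 at 4.47 and 5.81. By contrast COL5A1 changed sign with the library left out, at -0.39 without EV replicate 1 and 0.88 without replicate 2.

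In SNB19, more of the tested collagen chains were lower than higher in siMEOX2. Of 28 chains, 16 were lower in siMEOX2 and 4 higher at an adjusted p under 0.05. Over all 15525 genes tested, 28.5% were lower and 27.4% higher, whereas 57.1% of the tested chains were lower and 14.3% higher. The median log2 fold change was -0.46 over the chains and 0.01 over all genes. The share of all genes whose NC and siMEOX2 groups did not overlap was not counted. Statements below that the SNB19 groups did not overlap therefore only describe the values. The collagen share of counts went from 0.274% to 0.281% in NC to 0.154% to 0.156% in siMEOX2. In bulk RNA fewer cells making collagen and less collagen RNA per cell cannot be told apart. By class, 2 of 7 fibrillar chains were lower and 2 higher, 5 of 7 basement membrane chains lower and 1 higher, and 9 of 14 other chains lower and 1 higher. When all 10 libraries shared 1 estimate of the spread, 10 of the 20 calls were lost, among them COL1A1, COL4A1, COL4A3, COL5A1, COL6A3 and COL12A1.

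**Figure D1:**
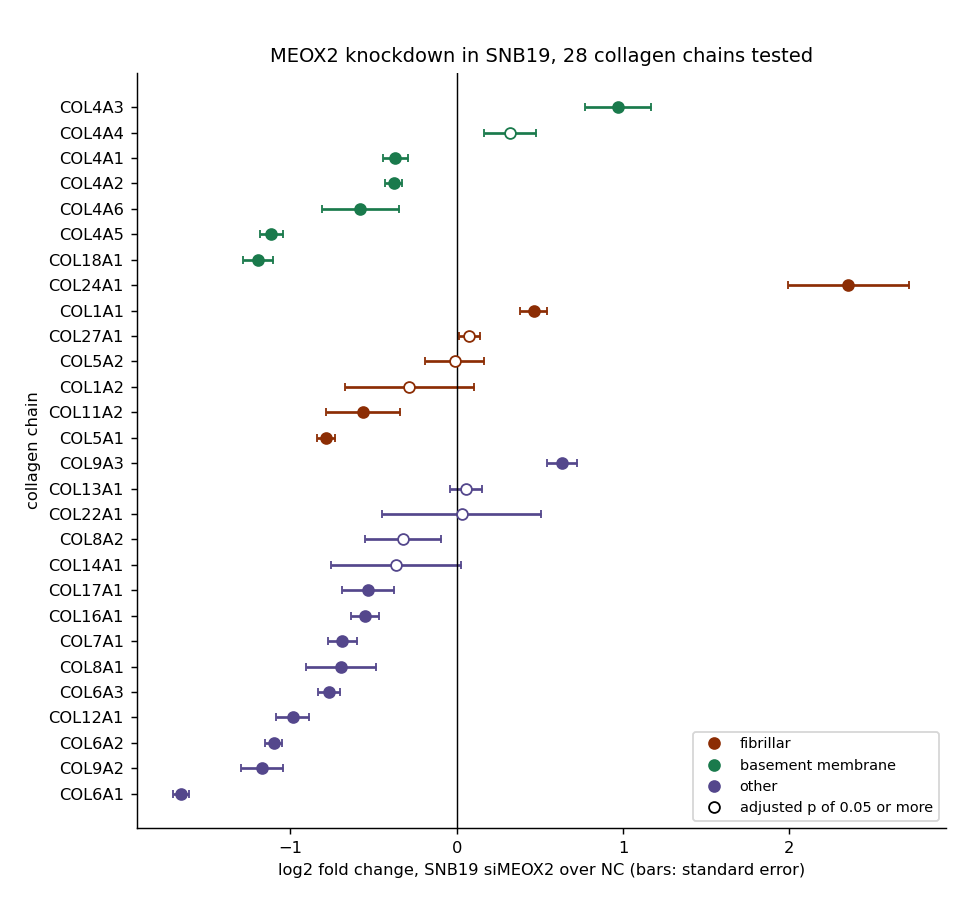
Log2 fold change of siMEOX2 over NC in SNB19 for the 28 tested chains, with standard errors as bars, colour by class and open points for an adjusted p of 0.05 or more. COL6A1 lies lowest at -1.66 and COL24A1 highest at 2.36, with the widest bar among the called chains.

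The type VI chains fell together. COL6A1 was at 167, 169 and 168 FPKM in NC and at 57.96, 55.7 and 54.98 in siMEOX2. All 3 treated libraries lay below all controls, and the log2 fold change was -1.66 ± 0.05 (adjusted p = 3.605e-16), a 3.15-fold drop. COL6A2 went from 130, 136 and 133 FPKM to 68.3, 65.0 and 62.2 (-1.10 ± 0.05, adjusted p = 2.353e-13). COL6A3, the longest of the chains, went from 8.31, 7.98 and 8.74 FPKM to 4.51, 5.62 and 5.40 (-0.77 ± 0.07). The fall was unequal within the type, so that the ratio of COL6A1 to COL6A2 was 1.25 to 1.29 in NC and 0.848 to 0.884 in siMEOX2. Type VI held 47.4% to 49.9% of collagen counts after knockdown. COL6A5 and COL6A6 were at or near 0 and were not tested.

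COL6A1 and COL6A2 lie side by side on the plus strand of chromosome 21, at 45981737 to 46005050 and 46098097 to 46132849 (GRCh38), and COL18A1 lies upstream of both at 45405137 to 45513720. The promoter of COL6A2 is shown because this chain was among the most abundant in both lines and had lower FPKM in both perturbed groups than in their controls. Capitals mark matches, on either strand, to TATAAA (the TATA box) and GGGCGG (the GC box, also written as its complement). The window runs from 250 bases before to 50 bases after the RefSeq start (GRCh38.p14, chr21:46097862-46098161, plus strand).
COL6A2: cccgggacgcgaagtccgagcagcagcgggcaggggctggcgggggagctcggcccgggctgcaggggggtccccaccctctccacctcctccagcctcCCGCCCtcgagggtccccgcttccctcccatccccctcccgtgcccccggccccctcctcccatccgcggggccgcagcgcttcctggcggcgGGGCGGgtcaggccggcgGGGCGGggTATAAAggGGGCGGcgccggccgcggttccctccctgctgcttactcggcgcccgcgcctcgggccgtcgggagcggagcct
It holds 5 matches.

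Among the basement membrane chains, the partners of each type IV gene pair had log2 fold changes of the same sign, though not always of similar size. The values were -0.37 and -0.38 for COL4A1 and COL4A2, 0.97 and 0.32 for COL4A3 and COL4A4, and -1.11 and -0.58 for COL4A5 and COL4A6. COL4A4 was not called. COL4A1 and COL4A2 share a promoter region on chromosome 13, COL4A3 and COL4A4 on chromosome 2, and COL4A5 and COL4A6 on the X chromosome, each pair transcribed away from each other. In these pairs the 300-base promoter windows of both partners overlapped by 226, 82 and 121 bases respectively. The window of 1 gene of each pair is printed, all on the plus strand of GRCh38.p14: COL4A2 at chr13:110307034-110307333, COL4A3 at chr2:227164374-227164673 and COL4A5 at chrX:108439588-108439887. Capitals mark CCAAT (the CCAAT box), GGGCGG and their complements.
COL4A2: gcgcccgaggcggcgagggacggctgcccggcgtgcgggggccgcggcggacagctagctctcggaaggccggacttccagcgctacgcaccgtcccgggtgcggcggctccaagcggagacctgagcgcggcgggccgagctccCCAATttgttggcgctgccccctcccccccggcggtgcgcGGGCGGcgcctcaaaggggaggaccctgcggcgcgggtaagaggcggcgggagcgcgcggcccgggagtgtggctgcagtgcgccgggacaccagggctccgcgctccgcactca
COL4A3: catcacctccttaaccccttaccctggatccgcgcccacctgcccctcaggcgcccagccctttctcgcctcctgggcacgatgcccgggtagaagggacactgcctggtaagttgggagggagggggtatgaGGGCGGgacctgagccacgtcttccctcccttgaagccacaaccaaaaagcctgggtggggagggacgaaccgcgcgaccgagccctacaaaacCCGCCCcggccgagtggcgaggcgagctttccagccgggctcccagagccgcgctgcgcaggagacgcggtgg
COL4A5: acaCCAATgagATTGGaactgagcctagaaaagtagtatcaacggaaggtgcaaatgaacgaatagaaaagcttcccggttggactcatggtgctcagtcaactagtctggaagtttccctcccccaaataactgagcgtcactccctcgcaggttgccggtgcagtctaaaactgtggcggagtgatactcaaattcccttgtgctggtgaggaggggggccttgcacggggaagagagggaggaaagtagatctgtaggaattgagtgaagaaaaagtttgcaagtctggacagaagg
The COL4A5 window, at 49.3% G and C, holds no GC box, whereas the COL4A2 window, at 77.7%, holds both motifs.

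COL4A1 and COL4A2 fell by similar amounts. COL4A1 went from 4.56, 4.86 and 5.13 FPKM to 3.42, 4.23 and 4.23 (log2 fold change -0.37 ± 0.08, adjusted p = 0.0002937). COL4A2 went from 12.4, 13.1 and 13.3 FPKM to 9.98, 10.5 and 10.9 (-0.38 ± 0.05, adjusted p = 2.263e-06). The ratio of the chains was 0.38 ± 0.01 in NC and 0.38 ± 0.03 in siMEOX2 (SD, n = 3 each). COL4A5 showed a larger fall, from 5.23, 5.17 and 5.26 FPKM to 2.60, 2.53 and 2.49 (-1.11 ± 0.07, adjusted p = 2.086e-11). Its neighbour COL4A6 was at 0.449, 0.306 and 0.347 FPKM in NC and 0.295, 0.277 and 0.206 in siMEOX2 (-0.58 ± 0.23). At an adjusted p of 0.04145 COL4A6 was the called chain nearest the threshold, and it lost its call without NC replicate 1, NC replicate 3, siMEOX2 replicate 2 or siMEOX2 replicate 3.

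COL4A3 and COL4A4 form the network of the kidney and lung basement membrane together with COL4A5. COL4A3 rose, from 0.252, 0.256 and 0.290 FPKM in NC to 0.496, 0.542 and 0.615 in siMEOX2 (log2 fold change 0.97 ± 0.20, adjusted p = 0.0003042). COL4A4 was at 0.635, 0.615 and 0.863 FPKM in NC and 0.765, 0.933 and 1.10 in siMEOX2. Its groups overlapped, and at an adjusted p of 0.09205 it was the uncalled chain nearest the threshold. Of the multiplexins, COL18A1 went from 4.29, 4.54 and 4.13 FPKM to 1.99, 1.78 and 2.20 (-1.19 ± 0.09, adjusted p = 6.452e-10), a drop of 2.28-fold, and COL15A1 was too low to test.

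Of 7 fibrillar chains tested in knockdown, 2 were lower and 2 higher, near the 28.5% and 27.4% of all genes. COL5A1, the main type V chain and a starter of fibril assembly, went from 24.7, 23.9 and 24.3 FPKM to 13.5, 15.8 and 15.3 (log2 fold change -0.78 ± 0.06, adjusted p = 2.096e-10). Its partner COL5A2 did not pass (-0.01 ± 0.18), and the ratio of COL5A1 to COL5A2 went from 31.4 to 41.4 in NC to 17.7 to 26.4 in siMEOX2. COL1A1 rose, from 4.23, 5.32 and 4.59 FPKM to 7.22, 6.49 and 6.75 (0.46 ± 0.08, adjusted p = 4.489e-05), with no overlap between the groups. COL1A2 stayed at 0.0562 to 0.0954 FPKM in siMEOX2 and was not called. COL24A1, a minor fibrillar chain, was at 0.0568, 0.0381 and 0.0539 FPKM in NC and at 0.339, 0.182 and 0.297 in siMEOX2 (2.36 ± 0.36, adjusted p = 1.365e-05), a 5.12-fold rise at a very low level. COL11A2, a cartilage chain, went from 0.484, 0.541 and 0.507 FPKM to 0.321, 0.454 and 0.316 (-0.56 ± 0.22, adjusted p = 0.03862) and kept its call only when siMEOX2 replicate 2 was the library left out. COL27A1, at 5.14 to 5.80 FPKM in NC and 5.80 to 6.06 in siMEOX2, was not called.

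Among the FACIT chains, which lie on the surface of fibrils, 3 of 6 tested were lower and 1 higher. COL9A2 and COL9A3 encode chains of type IX collagen and moved in opposite directions. COL9A2 went from 3.05, 3.58 and 3.73 FPKM to 1.53, 1.63 and 1.68 (log2 fold change -1.17 ± 0.13, adjusted p = 1.082e-07). COL9A3 went from 4.28, 4.82 and 4.07 FPKM to 7.60, 7.29 and 6.55 (0.63 ± 0.09, adjusted p = 5.182e-06). Neither pair of groups overlapped, and COL9A1 was at 0 in all 6 SNB19 libraries. COL12A1, which bridges type I fibrils, went from 1.89, 1.71 and 1.99 FPKM to 0.964, 1.03 and 0.989 (-0.98 ± 0.10), and COL16A1 from 3.96, 4.38 and 4.04 to 3.10, 2.65 and 3.13 (-0.55 ± 0.08).

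The remaining called chains all fell. COL7A1 went from 3.97, 3.69 and 3.29 FPKM to 2.61, 2.21 and 2.34 (log2 fold change -0.69 ± 0.09, adjusted p = 1.338e-06). COL8A1, a short-chain network collagen, went from 0.475, 0.387 and 0.603 FPKM to 0.291, 0.289 and 0.377 (-0.70 ± 0.21, adjusted p = 0.008035), and lost its call without NC replicate 3. COL17A1, the transmembrane chain of hemidesmosomes, went from 1.01, 1.12 and 1.11 FPKM to 0.937, 0.680 and 0.733 (-0.53 ± 0.16, adjusted p = 0.007166). COL13A1, another transmembrane chain, was at 3.11 to 3.66 FPKM in NC and 3.37 to 3.94 in siMEOX2 and was not called.

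Raising MEOX2 in U87 was accompanied by lower values of several abundant chains, but no chain passed the edgeR test on all 4 libraries. edgeR called 0 of the 25 chains tested and 0 of 14180 genes, 0% of the background. MEOX2 itself, at 0 in both EV libraries and at 4999 and 5308 counts in OE, was not called either (adjusted p = 0.1235). At an unadjusted p under 0.05, 8 chains were lower and 2 higher, 32% and 8% of those tested, against 10.7% lower and 7.98% higher over all genes. DESeq2 on the same 4 libraries called 4 chains lower and none higher of the 22 it gave an adjusted p. These were COL1A1, COL1A2, COL5A1 and COL6A1, 18.2% of the chains, against 4.44% of genes lower and 2.33% higher. The FPKM of both OE libraries lay below both EV libraries for 11 chains and above for 4, against 22.0% of genes below and 35.5% above. After TMM scaling, which raises the values of EV replicate 1, those shares were 28.2% and 29.9% of genes, with 14 chains below and 4 above. The median log2 fold change was -0.73 over the chains and -0.06 over all genes.

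Without EV replicate 1, where the lone EV library is assumed to vary as the OE pair does, 14 of 26 chains were lower and 2 higher. That is 53.8% and 7.69% of the chains, against 24.2% and 23.3% of 14875 genes. Without EV replicate 2, 13 of 25 chains were lower and 7 higher, against 35.2% and 36.0% of 14912 genes. A set of 9 chains was called lower without either library: COL1A1, COL1A2, COL5A1, COL5A3, COL15A1, COL6A1, COL6A2, COL8A1 and COL7A1. COL13A1 and COL21A1 were called higher in both. Over all genes tested in both, 15.0% were called lower without either library and 16.1% higher.

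**Figure D2:**
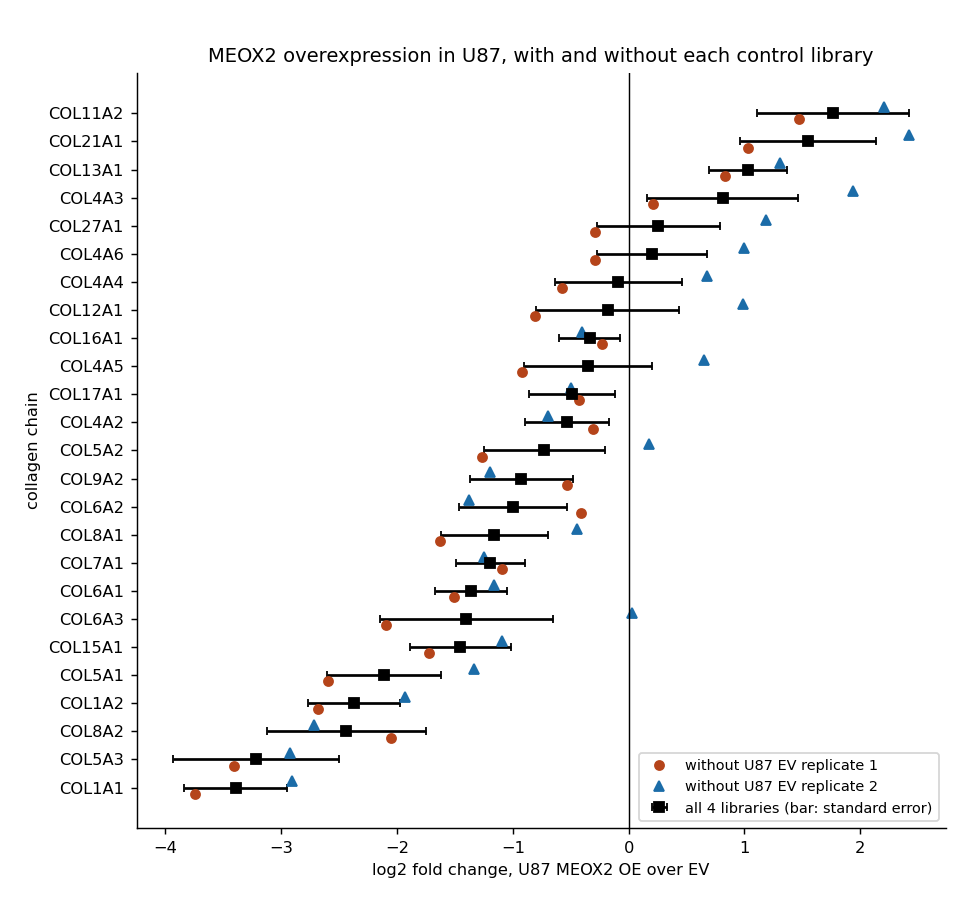
Log2 fold change of OE over EV in U87 for the 25 tested chains, from all 4 libraries (squares, bars are standard errors), without EV replicate 1 (circles) and without EV replicate 2 (triangles). COL1A1 lies lowest among the squares and the circles, and COL6A3 moves from -2.10 without replicate 1 to 0.03 without replicate 2.

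Both type I chains were lower in each OE library than in either EV library, though neither passed the edgeR test. DESeq2 called both, at an adjusted p of 7.414e-10 for COL1A1 and 6.167e-05 for COL1A2. COL1A1 was at 77.95 and 188 FPKM in EV and at 15.2 and 13.3 in OE. Both EV libraries lay above both OE libraries. In edgeR the log2 fold change of COL1A1 was -3.39 ± 0.44 (unadjusted p = 0.0008681, adjusted p = 0.1324), the smallest edgeR adjusted p among the chains. It was -3.74 without EV replicate 1 and -2.90 without replicate 2. COL1A2 was at 59.9 and 136 FPKM in EV and 21.98 and 20.8 in OE (-2.37 ± 0.40, adjusted p = 0.1485, and -2.68 without EV replicate 1). The ratio of COL1A1 to COL1A2 was 1.30 and 1.39 in EV and 0.689 and 0.639 in OE, a pair of chains close in exon length. Type I held 12.1% and 11.9% of collagen counts in OE.

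COL5A1 was at 8.86 and 28.6 FPKM in EV and 4.83 and 4.71 in OE (log2 fold change -2.11 ± 0.49, adjusted p = 0.1817, and -2.59 without EV replicate 1). COL5A2, at 6.34 and 23.2 FPKM in EV and 9.62 and 9.86 in OE, overlapped between the groups. Its log2 fold change was -1.27 without EV replicate 1 and 0.18 without replicate 2. COL5A1 relative to COL5A2 was 1.23 to 1.40 in EV and 0.478 to 0.502 in OE. COL11A2, at 0.0184 and 0.0422 FPKM in EV and 0.130 and 0.112 in OE, had a log2 fold change of 1.76 ± 0.66 (adjusted p = 0.2646, and 1.47 without EV replicate 1). COL27A1, at 1.44 and 5.39 FPKM in EV and 4.77 and 4.13 in OE, overlapped and had -0.29 without replicate 1 and 1.18 without replicate 2. COL24A1 did not exceed 0.0286 FPKM in any U87 library and was not tested.

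In type VI, COL6A1 was at 85.3 and 146 FPKM in EV and at 52.6 and 51.1 in OE, with no overlap (log2 fold change -1.36 ± 0.31, adjusted p = 0.1773, and -1.51 without EV replicate 1). COL6A2 was at 444 and 306 FPKM in EV and at 234 and 231 in OE (-0.997 ± 0.47, adjusted p = 0.3179). Its FPKM was higher in EV replicate 1 than in replicate 2, and its log2 fold change was -0.41 without replicate 1. COL6A3 was at 19.5 and 115 FPKM in EV and at 29.5 and 24.7 in OE, so that the EV libraries lay on either side of OE (-1.40 ± 0.75, adjusted p = 0.3521). Its direction rested on EV replicate 2, with -2.10 when replicate 1 was left out and 0.03 when replicate 2 was.

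In U87 EV, COL4A5 and COL4A6 had mean levels of 2.44 and 2.16 FPKM, and the other type IV chains had means below 1 FPKM. COL4A1 was counted 1 and 2 times in the OE libraries and was not tested. COL4A2 was at 0.225 and 0.232 FPKM in EV and 0.190 and 0.188 in OE (log2 fold change -0.53 ± 0.36, adjusted p = 0.4351, and -0.31 without EV replicate 1). COL4A5 was at 0.975 and 3.90 FPKM in EV and 2.04 and 2.13 in OE, with -0.92 without EV replicate 1 and 0.65 without replicate 2. COL4A6 was at 1.01 and 3.32 FPKM in EV and 2.81 and 2.66 in OE, with -0.29 and 1.00 for the same omissions. COL4A3 was at 0.0746 and 0.335 FPKM in EV and 0.411 and 0.374 in OE (0.81 ± 0.65, adjusted p = 0.4938, and 0.21 without EV replicate 1). COL4A4, at 0.160 and 0.515 FPKM in EV and 0.404 and 0.298 in OE, overlapped between the groups, with -0.58 without EV replicate 1 and 0.68 without replicate 2. Only COL4A2 and COL4A3 of the type IV chains kept their direction whichever EV library was left out, and both missed the threshold without replicate 1. COL18A1 did not exceed 0.0641 FPKM in U87 and was not tested.

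Of the other chains, COL7A1 was at 30.6 and 37.2 FPKM in EV and 19.2 and 15.9 in OE (log2 fold change -1.19 ± 0.30, adjusted p = 0.1888, and -1.10 without EV replicate 1). It is long, yet its EV libraries were close. COL8A1 was at 1.89 and 5.79 FPKM in EV and 2.07 and 1.73 in OE (-1.16 ± 0.46, adjusted p = 0.2798, and -1.63 without EV replicate 1). In deposited FPKM, without TMM scaling, EV replicate 1 thus lay between the OE libraries. The log2 fold change of COL8A1 from TMM-scaled counts without EV replicate 2 was -0.44. COL12A1 was at 2.50 and 11.7 FPKM in EV and 7.31 and 6.20 in OE, with -0.81 without replicate 1 and 0.98 without replicate 2. COL16A1, at 14.3 and 17.2 FPKM in EV and 14.9 and 14.7 in OE, had -0.34 ± 0.27 (adjusted p = 0.4896, and -0.23 without EV replicate 1). COL9A2 was at 0.969 and 0.827 FPKM in EV and 0.511 and 0.632 in OE (-0.93 ± 0.44, adjusted p = 0.3228, and -0.53 without EV replicate 1), and COL17A1 at 0.438 and 0.564 in EV and 0.384 and 0.454 in OE (-0.49 ± 0.37, and -0.43 without EV replicate 1). COL9A3 was at 0.0511 and 0.176 FPKM in EV and 0.0494 and 0.0565 in OE and was not tested. COL13A1 was at 0.494 and 0.930 FPKM in EV and 1.60 and 1.73 in OE (1.03 ± 0.34, adjusted p = 0.2385, and 0.83 without EV replicate 1).

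Knockdown and overexpression used separate libraries, and their values can be set side by side for the 22 chains tested in both. For 15 of these, 68.2%, the log2 fold change was below 0 in both comparisons, against 30.1% of the 12994 genes tested in both. Another 3 were above 0 in both, 2 were below in knockdown and above in overexpression, and 2 the reverse. Lower values under a loss and under a gain of MEOX2 thus met in COL6A1 (-1.66 and -1.36), COL6A2 (-1.10 and -0.997), COL5A1 (-0.78 and -2.11) and COL7A1 (-0.69 and -1.19). COL1A1 went up in knockdown at 0.46 and had -3.39 in overexpression. COL4A5, COL12A1, COL5A2 and COL6A3 are counted among the 15, although their overexpression value was above 0 without EV replicate 2. The lines, the vectors and the handling differ between the comparisons, and the difference between them was not tested.

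The genes that make, process and bind collagen were read from a list of 39. After knockdown 20 of 37 tested were lower and 5 higher, beside 28.5% and 27.4% of all genes. By role, 8 of 15 hydroxylation and glycosylation genes were lower and 2 higher, 3 of 8 folding and export genes lower and 1 higher, and 3 of 6 propeptide processing genes lower with none higher. Of 8 receptors, 6 were lower and 2 higher. BMP1, the procollagen C-proteinase, was at 20.8, 20.2 and 19.95 FPKM in NC and 6.997, 6.38 and 7.01 in siMEOX2 (log2 fold change -1.66 ± 0.06, adjusted p = 9.894e-15). The related proteinase TLL2 went from 1.42, 1.15 and 1.28 FPKM to 0.633, 0.623 and 0.557 (-1.16 ± 0.14), and the N-proteinase ADAMTS2 from 0.325, 0.267 and 0.266 to 0.0803, 0.0957 and 0.163 (-1.43 ± 0.31).

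Of the collagen-binding integrins the alpha chains fell, while ITGB1, their shared beta chain, rose slightly. ITGB1 was at 69.9, 64.8 and 69.1 FPKM in NC and 73.8, 79.6 and 80.8 in siMEOX2 (0.12 ± 0.05, adjusted p = 0.03448). ITGA11 went from 0.372, 0.409 and 0.504 FPKM to 0.188, 0.109 and 0.0915 (log2 fold change -1.78 ± 0.26, adjusted p = 7.154e-06). ITGA1 went from 0.618, 0.660 and 0.760 FPKM to 0.357, 0.337 and 0.333 (-1.06 ± 0.13), and ITGA10 from 0.201, 0.288 and 0.184 to 0.121, 0.0771 and 0.124 (-1.11 ± 0.37, adjusted p = 0.01378). The groups did not overlap for any of these 3 alpha chains, but the share of all genes without overlap was not counted in SNB19. In U87, edgeR called 0 of 35 list genes, and at an unadjusted p under 0.05, 13 were lower and 2 higher, beside 10.7% and 7.98% of all genes. DESeq2 called 6 lower and none higher, beside 4.44% and 2.33%. Between the control groups 5 of 38 were higher in SNB19 NC and 14 lower, beside 21.4% and 20.0% of all genes.

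Promoter windows from RefSeq were found for 32 of the 44 chains, 44 windows in all. TAATTA, a core bound by many homeodomain proteins, read on both strands as 1 palindrome, was in 4.84% of 35116 windows of all genes and in 1 of the collagen windows, that of COL10A1. TATAAA was in 11.5% of all windows and 18.2% of collagen windows, CCAAT in 34.6% and 31.8%, and GGGCGG in 45.0% and 54.5%. A match in these windows describes the letters only. Windows of head-to-head partners share bases and were counted separately.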

How the data were processed

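RNA was read as 150 bp paired-end poly-A libraries. Raw counts and FPKM for 34567 genes were deposited by the authors in 1 table. The submitters' processing notes name HISAT2, HTSeq 0.11.2, DESeq2 1.26.0 and GRCh38, with no role or strand setting given. The FPKM deposited by the authors equal the count divided by the GENCODE 29 exon union length and the library's total count, within 0.1% for every gene, so they carry no TMM scaling. Groups came from the sample titles, because the treatment text of the U87 samples numbers the gene differently in each sample and both OE titles end alike. Labels do not name separate cultures, so p-values measure the spread between these samples, which may be technical. No batch is given.

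Counts were tested with edgeR 4.0.16 (quasi-likelihood, TMM, filterByExpr) on each pair of groups over all genes, and called at a Benjamini-Hochberg adjusted p under 0.05. FPKM were described, not tested. SE is that of the log2 fold change. Alternatives were DESeq2 1.42.0, RLE scaling, no filter, a joint fit, a replicate block, a length correction (loess, span 0.5), the study's limits and leaving out each library. The length correction without EV replicate 1 and a crossed block were chosen after seeing the data. The scripts were tested on simulated counts. The chains, classes and lists were chosen with earlier results of these data known. Named were the called chains, the 8 highest of each line, the chains nearest the threshold, the 5 largest baseline differences in each direction, and up to 6 called genes of the list of collagen enzymes and receptors. COL3A1, COL10A1, COL13A1, COL15A1, COL21A1 and other chains outside that rule were named after their values were seen.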

Additional observations from a re-analysis of the deposited data

How the results depend on the processing

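In knockdown the 20 chain calls were 20 with RLE, 20 without the filter (19 of them shared), 20 with the replicate block and 18 with DESeq2. The joint fit of 10 samples, which takes in the spread between the EV libraries, called 2725 genes, 10 chains and 10 enzyme and receptor genes. The study's limits left 1669, 6 and 6. Leaving out 1 library at a time gave 7662 to 9102 genes, 18 to 20 chains and 21 to 28 list genes.

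In overexpression the counts of genes, chains and list genes called were 935, 4 and 6 with DESeq2, 1863, 6 and 6 without the filter, 4538, 14 and 17 in the joint fit and 2160, 10 and 11 under the study's limits. The length correction called 17 genes and no chain, and 7461, 16 and 29 when EV replicate 1 was also left out. Leaving out 1 library gave 38 to 10616 genes, 0 to 20 chains and 0 to 26 list genes, with EV replicates 1 and 2 behind the higher counts. Values that changed sign were COL4A4 (-0.58 without EV replicate 1, 0.68 without replicate 2), COL5A2 (-1.27 and 0.18), COL27A1 (-0.29 without EV replicate 1 against 1.18 without replicate 2, -0.00065 with the length correction, -0.25 with both), COL4A6 (-0.29 without EV replicate 1 against 1.00 without replicate 2, -0.25 with the length correction too), and, without EV replicate 2, COL4A5 (0.65, against -0.92 without replicate 1), COL6A3 (0.0267, against -2.10) and COL12A1 (0.98, against -0.81). The cause was not tested.

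Between the control groups, leaving out 1 library gave 3244 to 13629 genes, 16 to 29 chains and 8 to 35 list genes, and the length correction without EV replicate 1 called 12002 genes and 35 list genes.

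In SNB19 replicate numbers showed no pairing of the samples, with correlations of same-numbered deviations of 0.0026, -0.0123 and 0.0588. In U87 the correlation was -0.238 for the same numbers and 0.238 for crossed numbers. With 2 libraries per group these values mirror each other by construction, so they cannot decide whether the U87 samples were paired. The replicate block called 468 genes, 1 chain and 1 list gene in overexpression, the chain being COL1A1, and the log2 fold change of COL12A1, not called, turned to 0.0646. It called 3810 genes, 17 chains and 9 list genes between the control groups. The crossed block in U87 called 1152, 4 (COL1A1, COL1A2, COL5A1 and COL5A3) and 5, with COL12A1, not called, at 0.0644. The 13 untested chains had at most 9 counts in any library, and only 2 EV libraries stand behind every U87 value.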
